A study of Mus musculus with 9 samples.

Results

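The shared response of the embryonic mouse brain to 2 prenatal exposures, poly(I:C) and valproic acid, was read as the change of autosomal genes when both exposures were pooled against control. All 9 libraries of the study entered, 6 of them exposed and 3 control. Each library was made from whole brain of mice at embryonic day 14. The 3 controls, called wildtype in the study's outline, had received saline, 3 libraries followed exposure to poly(I:C) and 3 followed exposure to valproic acid. The labels give no strain, dose, day or route of exposure, litter or sex, and do not say whether a library held 1 embryo or several. P-values therefore measure the spread between these libraries, which may be partly technical. Each exposure was weighted by 0.5, so neither could carry the pooled difference by number alone, and a gene of the shared response had to pass the pooled test and move the same way in both exposures.

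Poly(I:C) is a synthetic double-stranded RNA that is sensed as viral RNA and sets off interferon and cytokine production. Given to a pregnant mouse, it serves as a model of maternal immune activation. Valproic acid is an antiseizure drug that inhibits histone deacetylases, and prenatal exposure to it is used as a rodent model of autism. In mid-gestation brain, radial glia divide along the ventricle, proneural factors such as Neurog2 commit their daughters to neuronal fate, and newborn neurons move outward. Progenitors of this kind are known for a high rate of aerobic glycolysis.

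Markers of neural tissue were high in all 9 libraries, and some of other tissues were present. Sox2, a factor of neural stem cells, lay between 196 and 231 CPM (counts scaled to the library total, with TMM factors) in the 9 libraries, and Tubb3, a tubulin of neurons, between 1900 and 2150 CPM. Krt5 of skin stood at 0 to 0.117 CPM and Myh3 of muscle at 0.149 to 0.988 CPM, while Col2a1, the collagen of cartilage, stood at 63.1 to 78 CPM and Col1a1 of fibroblasts and bone at 125 to 209 CPM. Libraries held 15399974 to 19883131 counts. Sex-linked transcripts did not fall evenly over the groups. Xist, the RNA of the inactive X chromosome, ranged from 981 to 1060 CPM in 4 libraries, poly(I:C) replicate 3 and every valproic acid replicate, and was 0.236 CPM or less in the other 5. Y-linked genes summed to 196 to 201 CPM in the replicates numbered 1 and 2 of both the control and the poly(I:C) group. They were at 0 elsewhere, so that control replicate 3 carried neither mark. Every valproic acid library had Xist and no control had it, so for that exposure the treatment and Xist cannot be told apart. The pooled fit was therefore repeated with each mark as a covariate. Within groups, Xist differed widely in poly(I:C) alone, at 0.217, 0.165 and 1050 CPM in replicates 1, 2 and 3. The Xist slope thus rests mainly on poly(I:C) replicate 3. Calls kept or lost with Xist, and the sizes fitted with it, therefore cannot tell exposure and sex apart.

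The pooled test called 477 of all 17171 genes (2.78%). Of 16278 autosomal genes tested, 438 (2.69%) formed the shared response in edgeR's quasi-likelihood test at a Benjamini-Hochberg adjusted p under 0.05. Of these, 250 (1.54% of the autosomal genes) were higher after both exposures and 188 (1.15%) were lower. A further 9 autosomal genes passed the pooled test with the exposures on opposite sides. The changes were small. The median size over the 438 genes was 0.236 on the log2 scale, or 1.18-fold, 62 genes reached 1.5-fold and 30 reached 2-fold. Of those 30, 7 were genes with an established name and 23 were pseudogenes or unnamed loci. The 6 exposed libraries lay entirely above or entirely below the 3 controls for 333 of the 438 genes, against 1228 (7.54%) of all autosomal genes tested. By direction this held for 204 genes that rose and 129 that fell, against 4.26% of autosomal genes above and 3.29% below. Genes that rose had a median mean level of 108 CPM, those that fell 33.1 CPM, and all autosomal genes 20.9 CPM. Shared genes made up between 1.55% (chromosome 16) and 3.61% (chromosome 15) of the tested genes of a chromosome.

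The size of the response depended on which libraries and which spread were used. Without control replicate 1 the count was 83, without control replicate 2 it was 226 and without control replicate 3 it was 139. Without poly(I:C) replicates 1 and 3 in turn it was 194 and 227, and without valproic acid replicate 3 it was 288. It was 373, 445 and 403 without poly(I:C) replicate 2, valproic acid replicate 1 and valproic acid replicate 2. In all, 59 genes were called in every one of these 9 fits. When the 6 exposed libraries were fitted as 1 group, so that differences between the exposures count as spread, 45 genes were called. With summed Y-linked expression as a covariate 177 were called, 168 of them among the 438, and with Xist as a covariate 4 were called, 3 of them among the 438. The medians of the 438 genes that rose and fell were 0.198 and -0.314 with Xist against 0.199 and -0.321 without. Their median standard error went from 0.0463 to 0.0729. Of the 111 shared genes that the naming rule picked, 34 were called in all 9 fits without 1 library, 22 with the exposed libraries as 1 group, 56 with the Y-linked covariate and 2 (Neurog2 and Kitl) with Xist.

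The exposures did not weigh alike. Tested alone, poly(I:C) changed 87 autosomal genes (0.534%) and valproic acid 1028 (6.32%), both against the same 3 controls. A deviation of those controls moves both changes the same way. The like direction and the overlap of the exposures therefore only describe the rule's own condition. Of the 438 shared genes, 41 passed in each exposure by itself, 337 passed after valproic acid alone, 25 after poly(I:C) alone and 35 in neither. Genes of the shared response that rose had a median log2 change of 0.155 after poly(I:C) and 0.246 after valproic acid. Those that fell had medians of -0.237 and -0.368. The test of valproic acid against poly(I:C), which leaves the controls out, called 105 of the 438 (24%), with the larger change after valproic acid in 92 and after poly(I:C) in 13. Among all autosomal genes 423 (2.6%) differed in that test.

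The 41 genes that passed in each exposure by itself in the same direction (0.252% of those tested, 24 higher and 17 lower) are described first. No autosomal gene with an established name passed in each exposure in opposite directions. Neurog2, the proneural transcription factor of the dorsal forebrain, rose. It stood at 139, 147 and 149 CPM in the controls, at 176, 171 and 184 CPM after poly(I:C) and at 220, 220 and 208 CPM after valproic acid, so the 3 groups did not overlap. The pooled log2 change was 0.43 with a standard error of 0.0371 (adjusted p = 2.87e-05 by edgeR's quasi-likelihood test). It was 0.28 after poly(I:C) and 0.57 after valproic acid, and that difference also passed (adjusted p = 0.00254). Rnd2, a small GTPase that acts in the migration of newborn cortical neurons, rose from 154 ± 8.21 CPM in the controls to 196 ± 3.39 CPM after poly(I:C) and 180 ± 10.9 CPM after valproic acid (SD, n = 3 each).

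**Figure D1:**
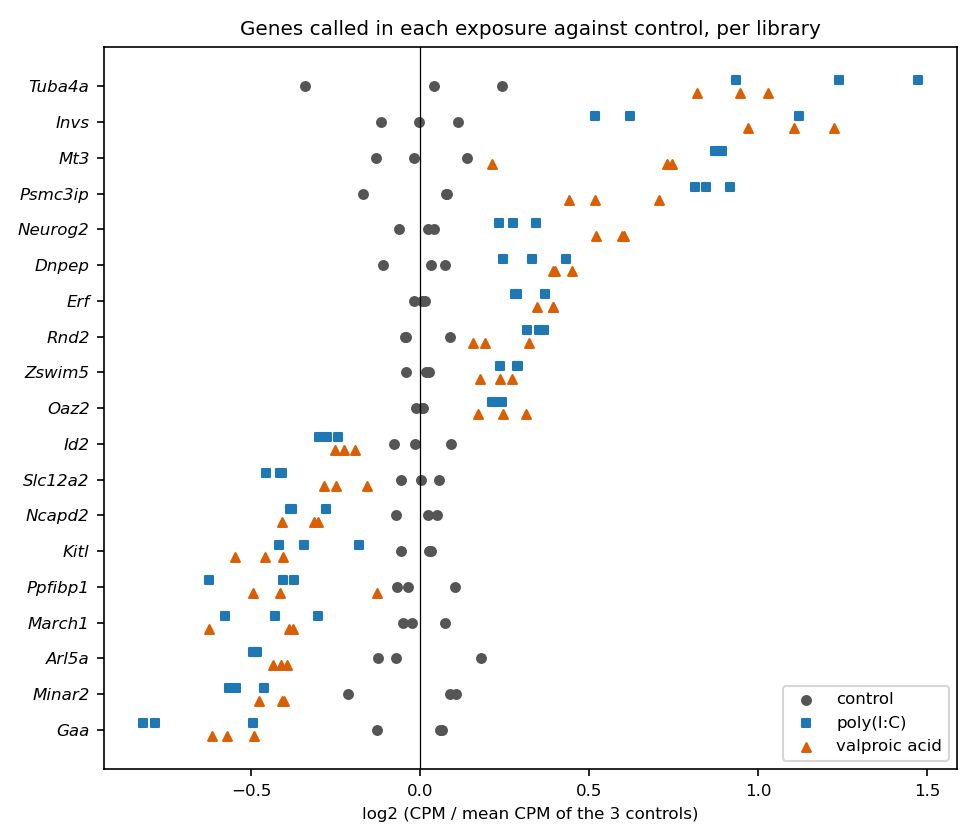
Level of 19 genes that passed in each exposure alone, as log2 of CPM over the mean of the 3 controls (horizontal axis), for each control (grey circles), poly(I:C) (blue squares) and valproic acid (orange triangles) library. The 10 upper genes have all 6 exposed libraries above the controls and the 9 lower genes have all 6 below.

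Mt3, the brain metallothionein that binds zinc and copper, stood at 41.9, 46.7 and 38.7 CPM in the controls. It reached 78.8, 78.4 and 77.7 CPM after poly(I:C) and 71.1, 49.1 and 70.3 CPM after valproic acid, where replicate 2 lay close to the highest control. Its pooled change was 1.66-fold (adjusted p = 0.0015). Psmc3ip, a cofactor of the recombinases of meiosis, stood at 18.6, 15.6 and 18.6 CPM in the controls, 33.2, 30.9 and 31.6 CPM after poly(I:C) and 23.9, 28.7 and 25.2 CPM after valproic acid, a pooled rise of 1.63-fold (adjusted p = 0.000405). Tuba4a, an alpha tubulin, went from 3.15 ± 0.623 CPM in the controls to 7.38 ± 1.36 CPM after poly(I:C) and 6.01 ± 0.435 CPM after valproic acid (SD, n = 3 each), a pooled rise of 2.12-fold. Invs encodes inversin of the primary cilium. It rose 1.92-fold in the pooled fit, from 14.5 to 16.9 CPM in the controls to 22.4 to 36.6 CPM in the exposed libraries. Erf, a repressor of the Ets family, Dnpep, an aspartyl aminopeptidase, Zswim5 and Oaz2, an inhibitor of polyamine synthesis, rose by 0.34, 0.38, 0.25 and 0.23 on the log2 scale.

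Among the 9 lower genes of that plot, Gaa had the lowest adjusted p. It encodes the lysosomal enzyme that breaks down glycogen. It stood at 88.5, 89 and 77.8 CPM in the controls, 60.3, 49.4 and 48.2 CPM after poly(I:C) and 55.5, 57.2 and 60.5 CPM after valproic acid. The pooled level was 1.54-fold lower (adjusted p = 0.000272), and the exposures did not pass the test of a difference (adjusted p = 0.441). Ncapd2, a subunit of the condensin complex that compacts mitotic chromosomes, stood at 165, 179 and 176 CPM in the controls, 143, 132 and 133 CPM after poly(I:C) and 139, 140 and 130 CPM after valproic acid. Its log2 changes were -0.35 and -0.34 (pooled adjusted p = 0.000506). Slc12a2, the chloride importer NKCC1, went from 141 ± 5.46 CPM to 105 ± 1.82 CPM after poly(I:C) and 120 ± 5.55 CPM after valproic acid (SD, n = 3 each), a deeper fall after poly(I:C) (adjusted p of the difference 0.0349).

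Kitl, the ligand of the Kit receptor, fell from 138, 130 and 138 CPM to 101, 107 and 120 CPM after poly(I:C) and 102, 98.6 and 92.8 CPM after valproic acid (pooled log2 change -0.39, adjusted p = 0.00121). Id2, which binds and blocks bHLH factors, was 1.19-fold lower, with 98.2, 87.5 and 91.4 CPM in the controls and 75 to 80.7 CPM in the 6 exposed libraries (adjusted p = 0.00796). Arl5a, an ARF-like GTPase, Minar2, the ubiquitin ligase March1 and the liprin Ppfibp1 were 1.37-, 1.39-, 1.36- and 1.32-fold lower. Of the 19 genes named here, 16 were called in all 9 fits that left out 1 library. Id2 and March1 lost the call without control replicate 1 (adjusted p = 0.067 and 0.063) and Ppfibp1 without control replicates 1 and 2 (adjusted p up to 0.0852). With Y-linked expression as a covariate the adjusted p of the 19 genes stayed under 0.05 except for Ppfibp1 (0.0501). With Xist as a covariate Neurog2 (0.049) and Kitl (0.00938) kept it.

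**Figure D2:**
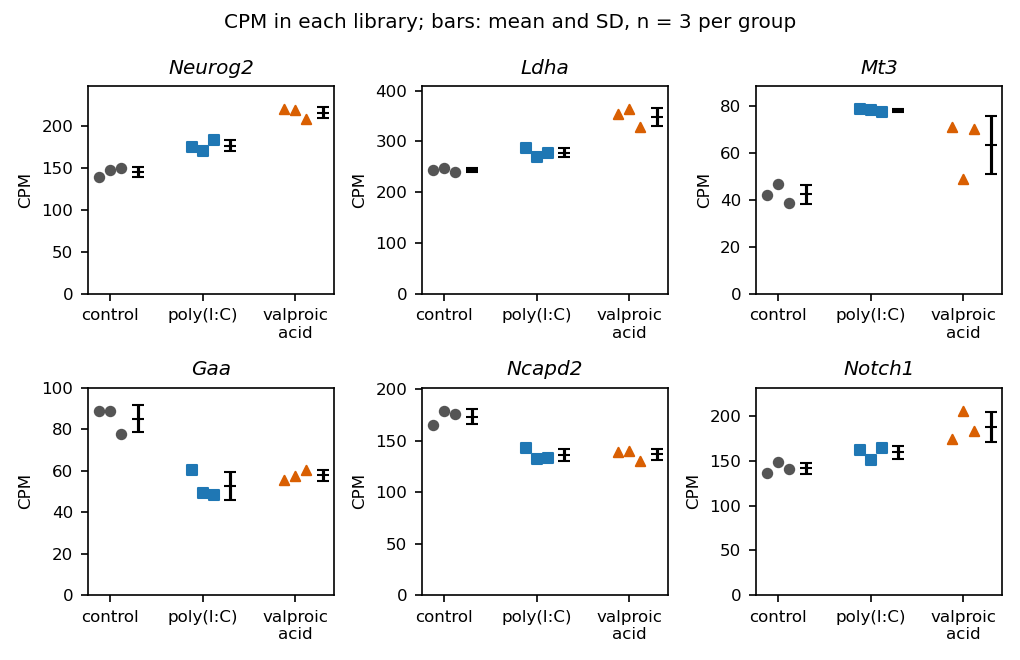
CPM (vertical axes, from 0) of Neurog2, Ldha, Mt3, Gaa, Ncapd2 and Notch1 in each control, poly(I:C) and valproic acid library, with mean and SD (n = 3) beside each group. For Neurog2 and Ldha the valproic acid libraries stand above the poly(I:C) ones, while for Gaa and Ncapd2 both exposures reach like levels below the controls.

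Glycolysis was the list with the highest share of its members in the shared response. Of its 21 tested genes, 7 were higher (33.3%, against 1.54% of autosomal genes) and none lower, and the list's median log2 change was 0.154 against -0.00682 over all genes tested. Here and for the lists below, the autosomal share is not matched for level. The median level was 20.9 CPM over autosomal genes and 108 CPM over shared genes that rose. By exposure the list's median was 0.0671 after poly(I:C) and 0.241 after valproic acid. The called genes were the kinases Pfkl and Pkm, Tpi1, Eno1 and Pgam1 of the middle of the pathway, Ldha, which makes lactate, and Slc16a3, the transporter that exports it. In the whole list 14 of the 21 genes had a pooled log2 value above 0. Upstream sequence was examined for the called genes because the list had the highest share of calls. RefSeq's promoter table (GRCm38.p6) gave the 250 bases before the start of each of the 7 genes, and 4 are shown. Capitals mark ACGTG on either strand, the core letters of the hypoxia response element, which also lie within the E-box CACGTG.
Ldha (chr7:46845554-46845803, plus strand): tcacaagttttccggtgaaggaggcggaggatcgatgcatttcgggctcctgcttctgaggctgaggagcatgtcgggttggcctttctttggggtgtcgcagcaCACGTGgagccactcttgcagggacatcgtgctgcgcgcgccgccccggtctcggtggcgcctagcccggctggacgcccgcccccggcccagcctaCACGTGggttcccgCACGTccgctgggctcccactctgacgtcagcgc
Slc16a3 (chr11:120948817-120949066, plus strand): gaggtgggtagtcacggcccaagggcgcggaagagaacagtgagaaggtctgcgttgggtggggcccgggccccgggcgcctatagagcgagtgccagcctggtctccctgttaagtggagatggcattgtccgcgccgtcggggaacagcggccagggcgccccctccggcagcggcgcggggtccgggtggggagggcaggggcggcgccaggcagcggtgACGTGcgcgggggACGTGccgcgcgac
Pgam1 (chr19:41911621-41911870, plus strand): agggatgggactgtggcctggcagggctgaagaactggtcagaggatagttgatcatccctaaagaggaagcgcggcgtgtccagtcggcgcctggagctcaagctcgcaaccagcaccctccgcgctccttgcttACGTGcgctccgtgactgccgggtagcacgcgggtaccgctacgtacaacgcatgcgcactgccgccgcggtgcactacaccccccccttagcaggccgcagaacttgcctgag
Eno1 (chr4:150236458-150236707, plus strand): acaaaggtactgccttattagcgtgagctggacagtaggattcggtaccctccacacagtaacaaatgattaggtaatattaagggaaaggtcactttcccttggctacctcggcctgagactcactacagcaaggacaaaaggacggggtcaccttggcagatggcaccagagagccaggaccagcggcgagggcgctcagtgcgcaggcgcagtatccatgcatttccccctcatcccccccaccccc
Ldha held 3 stretches with these letters, Slc16a3 2, Pgam1 1 and Eno1 0. The letters were present upstream of 3 of the 7 called glycolytic genes (42.9%), 7 of 19 of the list with a sequence (36.8%) and 21.3% of tested autosomal genes. The share was 24.9% for shared genes that rose and 19.4% for those that fell. These are matches of letters only. The end of each promoter entry, past the start, was found in a GENCODE M21 transcript of its gene except for Ldha and Pgam1.

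Ldha, the first of these sequences, stood at 243, 248 and 240 CPM in the controls, 287, 269 and 278 CPM after poly(I:C) and 354, 364 and 329 CPM after valproic acid. The 3 groups did not overlap. The pooled rise was 1.28-fold (log2 0.35, standard error 0.0367, adjusted p = 0.000219), and it was larger after valproic acid by 0.33 (adjusted p = 0.000872). Eno1, which has no such letters in its window, followed the same order, with 247, 251 and 247 CPM, then 272, 276 and 270 CPM, then 324, 339 and 311 CPM, a pooled rise of 1.2-fold (adjusted p = 0.00112). Pfkl and Pkm rose 1.22- and 1.15-fold. Tpi1 rose 1.18-fold, but poly(I:C) alone moved it by 0.06 (adjusted p = 0.635) against 0.42 after valproic acid, and its poly(I:C) libraries (221 to 227 CPM) overlapped the controls (208 to 224 CPM). These 5 genes were called in all 9 fits without 1 library and with the Y-linked covariate. None was called with Xist as a covariate (adjusted p 0.0573 to 0.333).

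Pgam1 and Slc16a3 were looked up after their values were seen. Pgam1 stood at 154 to 161 CPM in the controls, 152 to 165 CPM after poly(I:C) and 192 to 204 CPM after valproic acid. Slc16a3 stood at 4.83 to 7.08, 5.55 to 8.68 and 12.3 to 13.7 CPM in that order. For both, poly(I:C) overlapped the controls, and the shared label rested on a poly(I:C) change of 0.04 and 0.19 that did not pass (adjusted p = 0.782 and 0.725). Pgam1 lost the call without each control in turn (adjusted p up to 0.0847) and Slc16a3 kept it in 1 of the 9 fits. No glycolytic gene passed in poly(I:C) alone, and 17 of the 21 passed in valproic acid alone, counted in either direction. Only 14 of the 21 had a pooled log2 value above 0, so these 17 were not all genes with a pooled rise. Of 14 tested genes of the hypoxia response 2 rose (14.3%), Vegfa, the vascular growth factor, and P4ha1, a collagen prolyl hydroxylase, each 1.2-fold (adjusted p = 0.0358 and 0.0318). Both were called in 3 of the 9 fits. Of these 4 genes Slc16a3 kept the call with the Y-linked covariate (adjusted p = 0.0469), and none kept it with Xist (0.331 to 0.458).

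Progenitor genes were next. Of 19 genes of radial glia and neural stem cells, 6 were higher (31.6%, against 1.54% of autosomal genes) and none lower. Vim, the intermediate filament of radial glia, stood at 564, 581 and 594 CPM in the controls, 619, 609 and 603 CPM after poly(I:C) and 723, 689 and 698 CPM after valproic acid (pooled adjusted p = 0.00651). The groups did not overlap, although poly(I:C) alone did not pass for this gene (adjusted p = 0.392). Pax6, the dorsal progenitor factor, rose 1.17-fold, with 78.6, 80.8 and 82.6 CPM in the controls, 95.7, 93 and 85 CPM after poly(I:C) and 101, 98.5 and 92.3 CPM after valproic acid. Nr2e1 and Lhx2, factors that maintain forebrain progenitors, rose 1.14- and 1.11-fold. Vim lost the call without control replicate 1 (adjusted p = 0.0664), Pax6 in 4 fits (adjusted p up to 0.12) and Nr2e1 and Lhx2 in 6 each. Vim and Pax6 stayed called with the Y-linked covariate and Nr2e1 and Lhx2 did not (adjusted p = 0.0711 and 0.096), and with Xist none of the 4 did (0.126 to 0.472).

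Of 15 proneural and intermediate progenitor genes, 3 rose (20%, against 1.54% of autosomal genes). Beside Neurog2 these were Btg2, a marker of progenitors about to make neurons, at 52.1 to 56.4 CPM in the controls and 57.3 to 74.6 CPM in the exposed libraries (adjusted p = 0.0163), and Gadd45g, at 53.5 to 62.6 and 65.7 to 78.2 CPM (adjusted p = 0.0211). Each of Btg2 and Gadd45g was called in 7 of 9 fits and lost without control replicate 1. Of 16 genes of postmitotic neurons 2 were lower (12.5%, against 1.15% of autosomal genes) and none higher. Stmn3, a microtubule regulator, stood at 346, 349 and 341 CPM in the controls, 330, 330 and 323 CPM after poly(I:C) and 296, 295 and 303 CPM after valproic acid (log2 change -0.14, adjusted p = 0.019). Stmn2, its close relative, had a log2 change of -0.13 (adjusted p = 0.049). Stmn3 was lost without each control in turn and Stmn2 was called in 2 of the 9 fits. Of these 4 genes Btg2 passed with the Y-linked covariate (adjusted p = 0.0483), Gadd45g, Stmn3 and Stmn2 did not (0.0643, 0.0516 and 0.107), and with Xist all 4 lost the call (0.303 to 0.444). In bulk tissue, fewer cells of a type and less RNA per cell cannot be told apart.

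Among cell cycle genes, 2 of the 24 in the S phase list rose (8.33%, against 1.54% of autosomal genes): Uhrf1, which carries DNA methylation through replication (98.5 to 104 CPM in the controls, 106 to 129 CPM exposed, adjusted p = 0.0119), and Mcm3 of the replicative helicase (76.4 to 80.9 and 83 to 99.8 CPM, adjusted p = 0.0191). Of 21 genes of G2 and mitosis Aspm rose (4.76%), and of 17 cyclins and inhibitors Ccnd2 rose (5.88%), by 0.21 and 0.15 on the log2 scale. Uhrf1 was lost without control replicate 1 (adjusted p = 0.0794) and Mcm3 without control replicates 1 and 2. Ccnd2 was called in 6 of the 9 fits and Aspm in 1. The Y-linked covariate left Uhrf1 called (adjusted p = 0.0461) and the other 3 not (0.0643 to 0.111), and Xist left none (0.362 to 0.472).

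Signalling genes were tested by pathway. Of 29 Notch receptors, ligands and modifiers, Notch1 and Dlk1 were higher (6.9%, against 1.54% of autosomal genes) and none was lower. Notch1 stood at 136, 149 and 141 CPM in the controls, 163, 151 and 165 CPM after poly(I:C) and 174, 206 and 183 CPM after valproic acid. Its pooled rise was 1.22-fold (adjusted p = 0.00959), larger after valproic acid (adjusted p = 0.0434), and was lost without control replicate 1 (adjusted p = 0.0679). Dlk1, an imprinted gene of a Delta-like protein, went from 84.1, 91.1 and 90 CPM to 109, 100 and 104 CPM and to 113, 111 and 119 CPM, was called in each exposure and was kept in all 9 fits. Both genes kept the call with the Y-linked covariate and lost it with Xist (adjusted p = 0.34 and 0.152). The ligand Dll1 had a log2 value of 0.11 (adjusted p = 0.178). None of the 8 Notch targets passed, with 2 at an unadjusted p under 0.05 (25%, against 18.2% of autosomal genes), Hes1 at 0.12 (adjusted p = 0.447) and Hes5 at 0.42 (adjusted p = 0.0905). Hes5 stood at 10.7, 14.3 and 17.3 CPM in the controls and 16.8 to 21.7 CPM in the exposed libraries, an overlap set by control replicate 3.

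Of 25 Wnt genes 3 rose (12%, against 1.54% of autosomal genes). They were the receptors Fzd1 and Fzd8 and the secreted antagonist Sfrp1, with log2 changes of 0.21, 0.18 and 0.14. Of 12 hedgehog genes 2 rose (16.7%), the transducer Smo and the factor Gli3, by 0.17 and 0.20. Fgfr3 was the member of the FGF list that rose, from 83.4, 86.2 and 87 CPM to 97.2, 98.7 and 94.9 CPM after poly(I:C) and 112, 110 and 110 CPM after valproic acid, 3 groups without overlap (adjusted p = 0.00142). Id2 fell among 17 genes of BMP signalling (5.88%, against 1.15% of autosomal genes). That list as a whole did not fall, with 15 of its 17 genes above 0 and a median pooled log2 value of 0.0415. Fgfr3 was called in all 9 fits, while Fzd1, Fzd8, Sfrp1, Smo and Gli3 were called in 4, 2, 5, 1 and 3. Fgfr3 passed with the Y-linked covariate, but not with Xist (adjusted p = 0.109) or with the exposed libraries as 1 group (0.0721). The other 5 passed with neither mark (adjusted p of 0.061 or more with the Y-linked covariate and 0.303 or more with Xist).

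**Figure D3:**
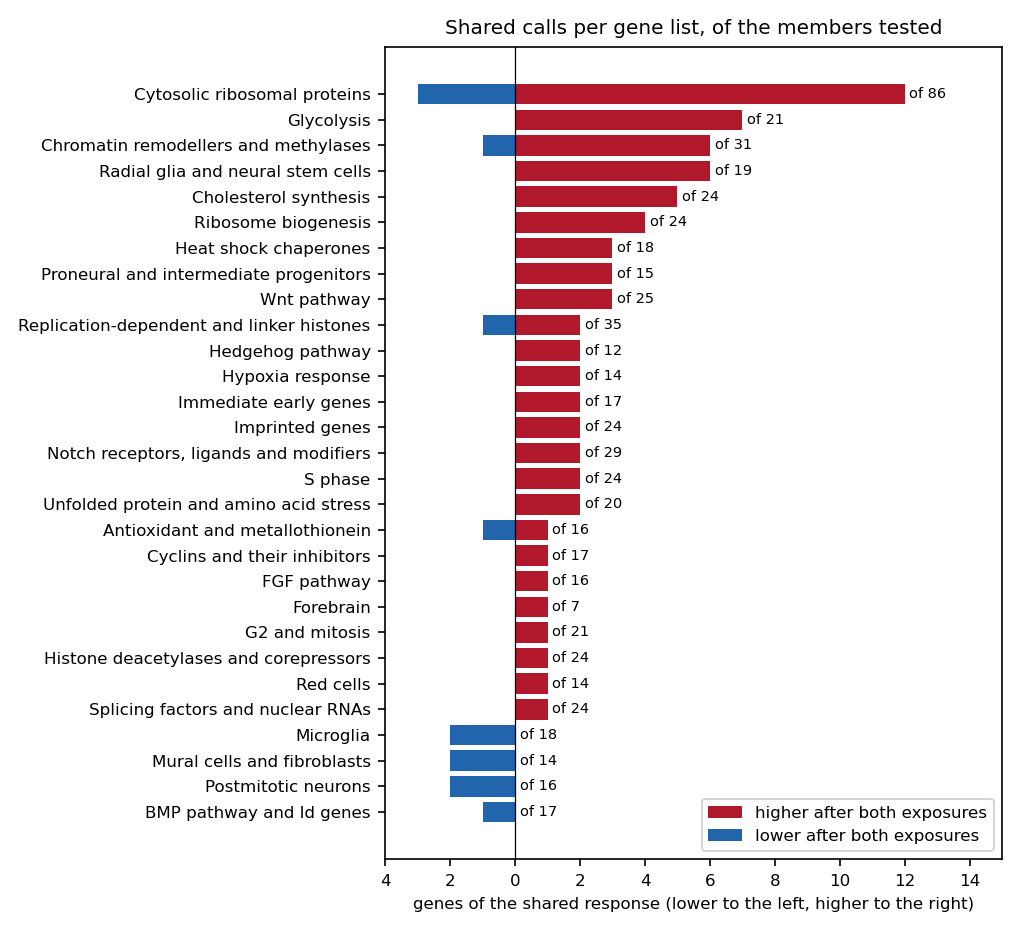
Number of genes of the shared response (horizontal axis) in each of the 29 gene lists with a call, higher to the right in red and lower to the left in blue, with the number of members tested at the end of each bar. Among called members, ribosomal proteins and glycolysis have the most that are higher, while microglia, mural cells, postmitotic neurons and the BMP and Id list have only lower ones.

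Chromatin regulators of several complexes rose. Of 31 remodellers and methylases 6 rose (19.4%, against 1.54% of autosomal genes) and 1 fell (3.23%, against 1.15%). The list's median was 0.0863 after poly(I:C) and 0.108 after valproic acid. Kmt2d, a histone methylase of enhancers, stood at 148, 154 and 148 CPM in the controls, 178, 166 and 176 CPM after poly(I:C) and 167, 197 and 185 CPM after valproic acid (1.19-fold, adjusted p = 0.0131). Chd4 of the NuRD complex stood at 558, 579 and 558 CPM, then 627, 607 and 619 CPM, then 634, 716 and 666 CPM (1.14-fold, adjusted p = 0.015). Arid1a of the BAF complex and Chd7 rose 1.15- and 1.17-fold. Smarca2, a BAF ATPase looked up after its values were seen, was the member that fell (log2 change -0.18, adjusted p = 0.0499). Kmt2d, Chd4 and Arid1a lost the call without control replicates 1 and 3 (adjusted p up to 0.0736, 0.0869 and 0.107), Chd7 in 5 fits, and Smarca2 was kept in 1. Of 24 histone deacetylases and corepressors Rcor2 rose (4.17%), by 0.14. Of 35 histone genes tested, the linker histone Hist1h1c and H2afv rose (5.71%) and Hist1h4i fell (2.86%). Hist1h1c stood at 6.73 to 9.48 CPM in the controls, 6.7 to 13.1 CPM after poly(I:C) and 17.3 to 20.9 CPM after valproic acid. Kmt2d, Chd4 and Arid1a were called with the Y-linked covariate (adjusted p 0.0359 to 0.0418), Chd7, Smarca2, Rcor2 and the 3 histone genes were not, and Xist left none of the 9 called (0.269 to 0.699).

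Cytosolic ribosomal proteins had 12 higher (14%, against 1.54% of autosomal genes) and 3 lower (3.49%, against 1.15%) of 86. The 3 lower members were the processed pseudogenes Rps3a2 and Rps3a3 and, looked up after its values were seen, Rps2, and 1 of the higher members was Rps3a1. All 4 belong to copies that may share reads, described at the end, so their directions are uncertain. Rplp2 stood at 280, 277 and 280 CPM in the controls, 312, 305 and 302 CPM after poly(I:C) and 341, 347 and 336 CPM after valproic acid (1.16-fold, adjusted p = 0.00188), 3 groups without overlap. It was called in all 9 fits and with the Y-linked covariate, but not with Xist (adjusted p = 0.109) or with the exposed libraries as 1 group (0.0777). The list's median was 0.00785 after poly(I:C) and 0.158 after valproic acid. Of 24 genes of ribosome biogenesis 4 rose (16.7%), Ubtf, Bop1, Nop2 and the fibrillarin gene Fbl, by 0.13 to 0.20. All 24 had a log2 value above 0, against a median of -0.00682 over all genes tested. None of the 4 was called in all 9 fits (6, 5, 3 and 0), with the Y-linked covariate (adjusted p 0.0643 to 0.107) or with Xist (0.215 to 0.443). The 79 mitochondrial ribosomal proteins, 78 respiratory chain genes and 35 proteasome genes gave no call, with 6, 11 and 6 at an unadjusted p under 0.05 (7.59%, 14.1% and 17.1%).

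Genes of cholesterol synthesis that entered the shared response did so mainly through valproic acid. Of 24 genes 5 rose (20.8%, against 1.54% of autosomal genes), among them Fdft1, Acat2 and Dhcr7, by 0.19 to 0.20. The list's median was -0.018 after poly(I:C) and 0.272 after valproic acid, where 16 of the 24 passed against none after poly(I:C). Dhcr7, a reductase of the last steps, stood at 58.1, 60.4 and 56 CPM in the controls, 61.7, 62 and 59.8 CPM after poly(I:C), which overlapped the controls, and 74.4, 68.2 and 75.6 CPM after valproic acid. Fdft1 lost the call without control replicate 1 (adjusted p = 0.0788), and Acat2 and Dhcr7 were called in 4 and 1 of the 9 fits. Among stress genes, 3 of 18 heat shock chaperones rose (16.7%), Hspa8, Hsp90ab1 and Cct5. So did 2 of 20 genes of the unfolded protein response (10%), Hspa5 and Pdia4, and 2 of 17 immediate early genes (11.8%), Jun and Btg2. The log2 changes of these genes were 0.11 to 0.31. The immediate early list as a whole did not rise, with 6 of its 17 genes above 0 and a median pooled log2 value of -0.0642. Hspa5, the chaperone BiP, stood at 331, 341 and 335 CPM in the controls and at 348 to 403 CPM in the exposed libraries without overlap (adjusted p = 0.0499). These 5 chaperone genes were called in 0 to 4 of the 9 fits, and Jun and Btg2 in 7. Of the 10 genes of this paragraph Fdft1, Acat2 and Btg2 passed with the Y-linked covariate, and none did with Xist (adjusted p 0.303 to 0.582).

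No call fell in the lists for interferon response (16 genes), inflammatory cytokines (6), synapse (25), voltage-gated channels (16), autism risk (34), axon guidance (23), cortical projection neurons (15) or GABAergic neurons (17). At an unadjusted p under 0.05 these lists had 4, 0, 8, 7, 10, 3, 3 and 3 genes. With 2.69% of autosomal genes called, lists this short would hold few calls, and their lack of one says little. The unadjusted share over autosomal genes was 18.2%, and it was 32% in the synapse list, 43.8% in the channel list, 29.4% in the autism risk list and 25% in the interferon list, differences that were not tested. Usp18, which dampens interferon signalling, had 0.0995 to 0.177 CPM in the controls, 0.22 to 0.542 CPM after poly(I:C) and 0.72 to 1.11 CPM after valproic acid (adjusted p = 0.0577), a level of few reads. The interferon list as a whole did not share this rise. Its median log2 change was -0.0944 after poly(I:C) and 0.359 after valproic acid, with 10 of the 16 pooled values above 0.

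Markers of other cells moved as follows. Of 18 microglial genes 2 fell (11.1%, against 1.15% of autosomal genes). They were Apoe, a lipid carrier that radial glia also make, and the purine receptor P2ry12. In this list 16 of the 18 genes had a log2 value below 0, against a median of -0.00682 over all genes tested. Apoe stood at 156, 160 and 146 CPM in the controls, 127, 140 and 130 CPM after poly(I:C) and 137, 125 and 138 CPM after valproic acid (adjusted p = 0.0221), and P2ry12 at 7.39 to 10.3, 5.59 to 8.29 and 3.8 to 5.83 CPM (adjusted p = 0.0439). The 18 genes summed to 315.9 to 326.9 CPM in the controls, 274.6 to 297.1 CPM after poly(I:C) and 304.9 to 315.2 CPM after valproic acid. Of 14 mural cell and fibroblast genes 2 fell (14.3%), Rgs5 of pericytes (72.2 to 79.8 CPM in the controls, 58.5 to 66.6 CPM exposed, adjusted p = 0.0208) and Acta2 of smooth muscle (4.13 to 5.58 and 1.9 to 5.04 CPM, adjusted p = 0.0459), with summed levels of 916.5 to 968.3, 805.6 to 846.8 and 883.2 to 1111 CPM. Of 14 red cell genes the embryonic globin Hbb-y rose (7.14%, against 1.54% of autosomal genes), with 48.9 to 74.6, 57.7 to 91.6 and 98.5 to 187 CPM, and the list summed to 1872 to 2158, 1457 to 2084 and 2331 to 2695 CPM. Apoe, P2ry12, Rgs5, Acta2 and Hbb-y were called in 5, 3, 7, 1 and 2 of the 9 fits. No call fell among 13 endothelial or 10 choroid plexus genes, with 2 and 0 at an unadjusted p under 0.05. Vwf, the von Willebrand factor of endothelium, was not on that list and was 1.48-fold lower (adjusted p = 0.0499), with 16.2, 18.1 and 22.7 CPM in the controls, 12.7, 17.5 and 9.89 CPM after poly(I:C) and 13.4, 11.8 and 12 CPM after valproic acid. It was called in 1 of the 9 fits. Neither Vwf nor the 5 genes named before it passed with the Y-linked covariate (adjusted p of 0.0639 or more) or with Xist (0.305 or more). The mitochondrial ribosomal RNA mt-Rnr2, which lies off the autosomes, was also higher in all 6 exposed libraries, at 427.7 to 616.1 against 350.5 to 417.6 CPM (adjusted p = 0.00866). The part of other cells and of RNA quality in the gene groups above was not tested.

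Among the named genes whose groups did not overlap, the largest falls were in genes of low level. Copies of ribosomal protein genes, described at the end, fell further at higher levels. Ephx2, the soluble epoxide hydrolase, was 2.34-fold lower (1.3 to 1.99 CPM in the controls, 0.466 to 1.06 CPM exposed, adjusted p = 0.0323). Ky, a gene of muscle, was 2.3-fold lower and Dio2, which activates thyroid hormone, 2.02-fold lower, from 2.09 to 2.66 CPM to 0.825 to 1.69 CPM (adjusted p = 0.0314). Lrrc4c, a netrin-G ligand at synapses, Slitrk6, a transmembrane protein of neurons, and Cgref1 were 1.46-, 1.48- and 1.46-fold lower. Acyp2, Dhrs7, Ppp1r3d (a glycogen-targeting subunit of protein phosphatase 1), Ddb2 of DNA repair, Slc25a47 and Micall2 were 1.45- to 1.95-fold lower. Of these 12 genes Cgref1 was called in 8 of the 9 fits (adjusted p = 0.05 without control replicate 2) and the others in 1 to 6. Ephx2, Lrrc4c and Cgref1 passed with the Y-linked covariate (adjusted p = 0.039 each), the other 9 did not, and none passed with Xist (0.292 to 0.714).

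Among the rises, Slc15a2, the peptide transporter PEPT2, went from 24.1, 24.8 and 26.7 CPM to 37.3, 30.3 and 42.7 CPM after poly(I:C) and 55.3, 41.9 and 54 CPM after valproic acid (1.7-fold, adjusted p = 0.00188). Hhipl1, the ligand Wnt9a, Pianp, Stom (stomatin), Cyp46a1 (cholesterol 24-hydroxylase), Nsl1 of the kinetochore and the tubulin Tuba1c rose 1.32- to 1.49-fold. Tma16, a gene of ribosome assembly, had the order reversed, at 19.4, 17.4 and 18.5 CPM in the controls, 31.6, 34.6 and 30.6 CPM after poly(I:C) and 20.8, 20.8 and 20.1 CPM after valproic acid. Its pooled rise of 1.4-fold (adjusted p = 0.00201) came with log2 values of 0.81 and 0.16, a difference that passed (adjusted p = 0.000449). Slc15a2 and Tma16 were called in all 9 fits. Hhipl1 was called in 7, Wnt9a in 0 and the other 5 in 3 to 6. With the Y-linked covariate Wnt9a, Stom and Tuba1c lost the call (adjusted p = 0.0983, 0.0631 and 0.0633), and with Xist all 9 did (0.0797 to 0.453).

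**Figure D4:**
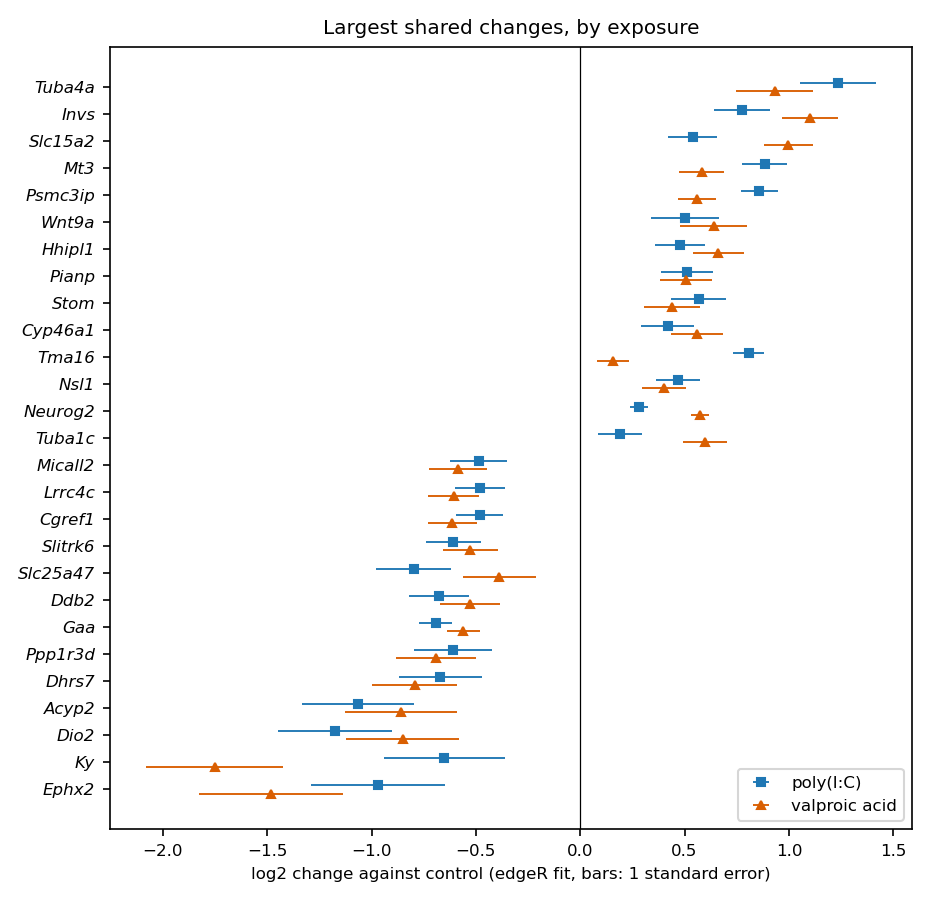
Log2 change against control after poly(I:C) (blue squares) and valproic acid (orange triangles) for 27 named genes with the largest shared changes, with bars of 1 standard error from the edgeR fit. All 27 lie on 1 side of 0 in both exposures, and the widest gaps between the exposures are those of Ky (-1.10, valproic acid minus poly(I:C), adjusted p = 0.106), Tma16 (-0.65), Ephx2 (-0.51) and Slc15a2 (0.46).

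At the edge of the call stood Smo and Vwf just inside (adjusted p = 0.0499 each), and Cyp51 and Mfng just outside (adjusted p = 0.05 each), with pooled log2 values of 0.17, -0.56, 0.16 and 0.20.

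Some of the widest differences lay in genes with near-identical copies, where counting can split reads between copies, and these are uncertain. Rps3a1, the expressed gene of ribosomal protein S3a, stood at 393.47, 124.07 and 118.5 CPM in the controls, 643.84, 638.13 and 636.87 CPM after poly(I:C) and 439.71, 437.2 and 426.88 CPM after valproic acid, a pooled rise of 2.49-fold (adjusted p = 0.0256), lost without control replicates 2 and 3 and poly(I:C) replicate 1 (adjusted p up to 0.0955). Its copy Rps3a2 stood at 134.72, 277.19 and 287.26 CPM, then 2.55, 3.08 and 2.47 CPM, then 161.69, 159.53 and 146.83 CPM. The 3 copies together summed to 590.31 to 631.2 CPM in the controls, 641.34 to 647.91 CPM after poly(I:C) and 673.3 to 710.44 CPM after valproic acid. The split over the copies differed between groups more widely than the sum.

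**Figure D5:**
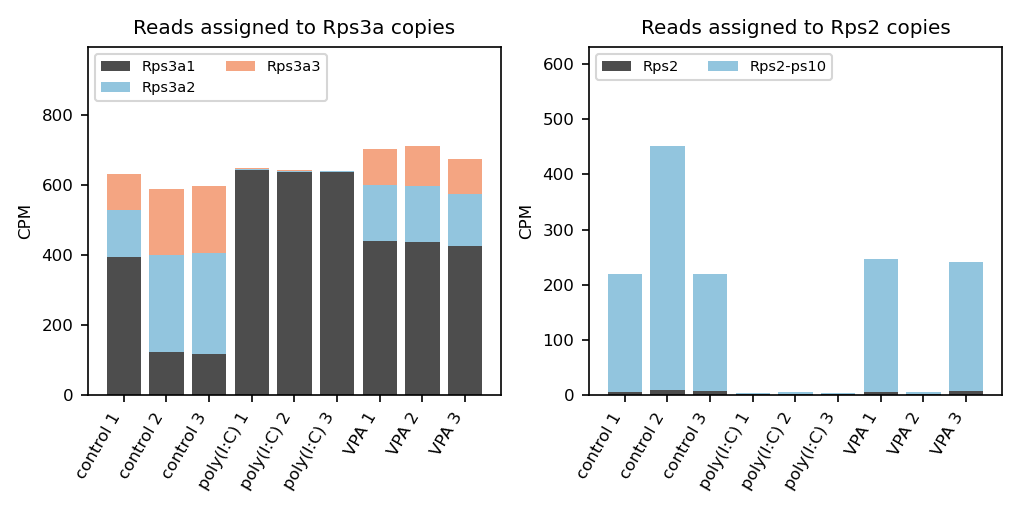
CPM (vertical axes, from 0) assigned to each copy of Rps3a (left) and Rps2 (right), stacked, in the 9 libraries (VPA, valproic acid). The Rps3a sum lies between 590.31 and 710.44 CPM while its split differs, and Rps2-ps10 is near 0 in the 3 poly(I:C) libraries and valproic acid replicate 2.

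Rps2-ps10 stood at 212.82, 440.91 and 212.36 CPM in the controls, 2.01 to 2.53 CPM after poly(I:C) and 241.11, 2.74 and 233.2 CPM after valproic acid, so 1 valproic acid library sat with the poly(I:C) libraries. Rps2 and Rps2-ps10 together summed to 218.84, 450.39 and 219.42 CPM in the controls and 4.34 to 5.16 CPM after poly(I:C). After valproic acid the sums were 247.53, 5.13 and 240.73 CPM. Unlike the Rps3a sum, this sum differed as widely as its main copy. Hmgb1, a chromatin protein looked up after its values were seen, stood at 198.24, 182.63 and 153.68 CPM in the controls, 102.82, 94.57 and 98.41 CPM after poly(I:C) and 153.81, 113.83 and 106 CPM after valproic acid, with 1 valproic acid library just above the lowest control (log2 change -0.68, adjusted p = 0.00192, called in all 9 fits). Rps3a1 and Hmgb1 kept the call with the Y-linked covariate and lost it with Xist (adjusted p = 0.34 and 0.152). The Hmgb1 copy Hmgb1-ps7 ran the other way, at 0.47, 0.96 and 11.45 CPM in the controls and 16.06 to 29.31 CPM in the exposed libraries. Hmgb1 with its annotated pseudogenes summed to 192.05 to 221.56 CPM in the controls, 149.59 to 160.15 CPM after poly(I:C) and 168.49 to 199.01 CPM after valproic acid. Pseudogenes made up 25 of the 438 shared genes, of 841 tested, a share close to the 2.69% of all autosomal genes that were shared.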

How the data were processed

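RNA-seq libraries of 9 brains or brain pools were made from ribosome-depleted total RNA with random fragmentation, per the labels' protocols. The deposited table holds raw counts of reads for 56748 Ensembl genes. Per the submitters' processing notes the aligner was HISAT2 and the build GRCm39. How reads were counted, whether by strand, and on which annotation is not given in the sources used here. Overlapping and antisense genes therefore cannot be told apart, and copies may share reads. Symbols and chromosomes came from GENCODE M21, an earlier build, without coordinates (4623 genes had no symbol). Promoters came from RefSeq's table on GRCm38.p6, by symbol, first entry, without chromosome 18.

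Genes were kept by filterByExpr (min.count 10, min.total.count 15; 17171 tested, 269 of them without a chromosome), scaled by TMM factors (0.9775 to 1.018) and fitted with a mean per group by edgeR 4.0.16 (R 4.3.3). The pooled contrast was the mean of both exposures minus control, two-sided, adjusted over all tested genes, and the shared response is its autosomal calls with both exposures on 1 side. "Lost" means an adjusted p of 0.05 or more. No library was a copy of another (chi-square over degrees of freedom within groups, 3.95 to 6.46). The code was tested on simulated data.

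Named genes were the 15 largest rises and falls without overlap, up to 10 per direction called in each exposure, up to 4 per list, and those that differ most between exposures. A few genes that met this rule are not reported here. The 52 lists and the members were chosen with earlier results of these data known. Alternatives were other scaling, filters, DESeq2 1.42.0, 1 exposed group, a replicate block, sex-linked covariates, autosomal genes alone, other library sizes and each library left out.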

Additional observations from a re-analysis of the deposited data

Results flagged for a closer look

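The exposures differed from each other in 33 of the named genes of the shared response, by the test of valproic acid against poly(I:C) (edgeR, adjusted p under 0.05). All values are log2 differences, valproic acid minus poly(I:C), and the genes moved the same way in both exposures against control. In glycolysis they were Ldha (0.33), Eno1 (0.25), Tpi1 (0.36), Pfkl (0.23), Pkm (0.16), Pgam1 (0.29) and Slc16a3 (0.86), each higher after valproic acid. In cholesterol synthesis they were Dhcr7 (0.25) and Fdft1 (0.23).

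Among progenitor and signalling genes the values were Neurog2 (0.29), Nr2e1 (0.29), Vim (0.20), Notch1 (0.24), Fgfr3 (0.19), Fzd8 (0.27), Sfrp1 (0.15) and Smo (0.23). Among chromatin and RNA genes they were Chd7 (0.23), Rcor2 (0.17), Hist1h1c (0.82) and Ptbp1 (0.18). The imprinted gene Nnat (0.29) and the ribosomal protein gene Rplp2 (0.16) rose further after valproic acid. Slc15a2 (0.46), the chaperone partner Dnajc1 (0.74) and the embryonic globin Hbb-y (1.10) did too.

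Genes that fell further after valproic acid were Ptpn5 (-0.39), Stmn3 (-0.14) and Acta2 (-0.98). Slc12a2 (0.20) fell further after poly(I:C), and Tma16 (-0.65) rose further there. The copies Rps3a2 (5.85) and Rps3a3 (5.86) were near 0 after poly(I:C) and may share reads with Rps3a1. Xist was present in all 3 valproic acid libraries and 1 of 3 poly(I:C) libraries, and with Xist as a covariate none of the 4 genes then shared differed between the exposures.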

How the results depend on the processing

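In the fits that left out 1 library, the shared response held 83 to 445 genes (438 in full), 39 to 275 higher (250) and 44 to 182 lower (188). The count called in each exposure was 18 to 44 (41), that without overlap of the groups 76 to 349 (333) and that differing between exposures 29 to 68 (105). Without a filter on low counts the numbers were 1009 shared, 510 higher, 499 lower, 192 in each exposure and 292 differing. DESeq2 called 642 shared, 398 higher and 76 in each exposure. As 1 group of 6 the exposed libraries gave 45 shared, 24 higher, 21 lower and 43 without overlap. The Y-linked covariate left 177 shared, 104 higher, 73 lower, 22 in each exposure, 135 without overlap and 22 differing. The Xist covariate left 4 shared, 2 higher, 2 lower, 4 in each exposure, 3 without overlap and 0 differing. At an unadjusted p under 0.05, 1497 autosomal genes stood in the shared direction with Xist and 2902 without it. The share of higher genes was 57.1%, 47% without control replicate 1, 50% with Xist and 62% with DESeq2. Other counts stayed within 1.5 times. Pax7, which was not called, changed sign without control replicate 1 (log2 value 0.11, with -0.74 to 0.11 over the 9 fits).

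The correlations gave no clear pairing by replicate number, but with 3 libraries per group they cannot exclude one. Same-numbered libraries correlated by -0.0416 to 0.131 in their deviations, above 0.1 in 1 of 9 pairs. Pairs with unlike numbers correlated by -0.0906 to 0.0483. With the replicate block 303 genes were shared and 67 differed between exposures. Among the libraries with Y-linked reads no valproic acid library stood, so no pooled value was had. In the 4 libraries that have such reads, poly(I:C) against control called 55 autosomal genes. The fit of all 9 libraries called 87 (0.534%) for that exposure. The median standard error of the pooled log2 change, 0.0802 over autosomal genes and 0.0463 over the shared ones, limits what 3 libraries per group can show.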
